A study of Drosophila melanogaster with 17 samples.

Results

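Cuticle protein genes were followed through a glial TRAP-seq experiment in *Drosophila melanogaster*. They were taken by symbol: every gene of the deposited table whose FlyBase symbol begins with Cpr and a number, Ccp84, Lcp, Twdl or Edg and a number, or is Pcp or Acp1. This gave 122 genes of 13479 listed. All flies carried the pan-glial driver *repo-GAL4* and *UAS-GFP::RpL10A*, so that ribosomes of glia held a GFP-tagged ribosomal protein by which their mRNA could be pulled down from whole heads. Sham flies, labelled as untreated, were compared with flies that had received a closed-head injury (TBI) by the dCHI device, at lights-on 1, 3 and 7 days later, in triplicate, apart from TBI on day 7, where the authors had removed a replicate and 2 libraries remained. The labels number these days 3, 6 and 10. The labels give the flies as female and the study as male, each library pooled many heads, and the mRNA was amplified before sequencing.

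The insect cuticle is a layered matrix of chitin fibres and proteins, laid down on the outer side of epithelia such as epidermis, trachea, foregut and the cells under the corneal lens. Most of its structural proteins belong to the CPR family, which share the Rebers and Riddiford domain that binds chitin and which include the products of the Cpr, Lcp, Ccp84A and Pcp genes. The Tweedle proteins, from the Twdl genes, form a separate family of chitin-binding cuticle proteins that help shape the larval body. Different members are used in larval, pupal and adult cuticle, largely under control of the moulting hormone ecdysone, and no structural role in glia is part of this textbook picture. In RNA from bulk tissue, fewer cells of a type and less RNA per cell cannot be told apart.

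Values are TPM, a level scaled for transcript length and library total that keeps no read depth. The listed genes added up to 832800 to 854953 TPM per library, and 9880 to 11350 of them were above 0. The 11 glial markers listed were all above 0, with a sum of 2114 to 6278 TPM, beside 26925 to 61077 TPM for 12 photoreceptor and eye genes, so the pull-down also held RNA of the eye. Some libraries stood apart by genes of the gut: 30 midgut digestive enzyme genes, of which Jon44E and Jon66Cii were at 0 in every library, summed to between 554 and 1015 TPM in all 3 day 1 libraries from TBI flies, to 848 TPM in sham replicate 2 of day 3 and to 944 TPM in TBI replicate 1 of day 7, and to 36.7 to 69.5 TPM in the other 12. Nothing in the labels says that replicates came from separate cultures, so p-values measure the spread between these samples.

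Most cuticle genes were barely present. Of the 122, 17 (13.9%) were listed at 0 in every library, against 6.04% of all genes listed, and 34 (27.9%) had a mean of at least 1 TPM over the 17 libraries, against 65% of all genes. The median of their means was 0.104 TPM. Only 29 were above 0 in every library, and 9 reached a mean of 10 TPM. In each library, between 46 and 66 of them were above 0.

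Low and high members lay side by side on the chromosomes. By the release 6 annotation, 91 of the 122 fell into 17 clusters whose neighbours were at most 20 kb apart, and 6 of these clusters had no member at a mean of 1 TPM. The cluster of 12 Tweedle genes on chromosome arm 3R (26619118 to 26641054) had 4 members above 0 in any library, and its highest, TwdlD, had a mean of 0.0545 TPM. The larval cuticle genes Lcp1 to Lcp4 on 2R reached at most 0.404 TPM, the mean of Lcp3. The largest cluster, 17 genes at 65A on 3L (6130386 to 6161589), had 5 genes at 0 everywhere beside Cpr65Au, the second most abundant cuticle gene, and the cluster of 8 genes at 49A on 2R (12376626 to 12415170) had 5 members at a mean of 1 TPM or more.

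A few CPR genes made up most of the cuticle signal. Cpr72Ec, which encodes a protein of the corneal lens, was the highest with a mean of 267 TPM, and 2.88% of all genes were higher. Cpr65Au followed with 136 TPM and Cpr67B with 106 TPM. Cpr49Ag (46.3 TPM), Cpr57A (31.1 TPM), Cpr49Ae (26.7 TPM), Cpr100A (19.0 TPM), Cpr62Bb (15.8 TPM) and Acp1 (13.0 TPM) completed the genes over 10 TPM. Cpr47Ee (9.54 TPM), Cpr51A (8.61 TPM), Ccp84Ab (7.23 TPM), Cpr97Eb (5.68 TPM), Cpr60D (3.42 TPM) and Cpr49Ab (3.29 TPM) came next. The 3 highest genes held 52.5% to 77.9% of the summed cuticle TPM of a library. The lowest of these shares were those of the 3 TBI libraries of day 1 (54.5%, 52.5% and 56.5%), against 68.3%, 72.3% and 71.2% in the sham libraries of that day. The exons of Cpr57A lie wholly within those of Obp57d on the same strand, and part of those of Cpr65Au overlap the antisense RNA CR46005, so reads of these genes may not be theirs alone.

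**Figure D1:**
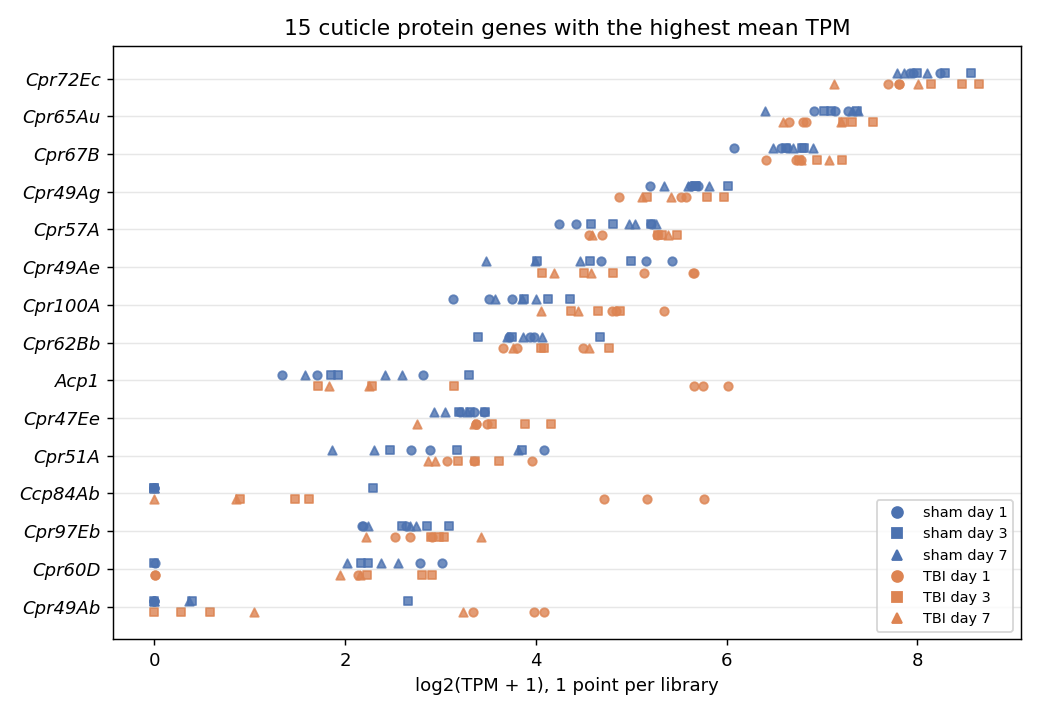
Levels of the 15 cuticle protein genes with the highest mean. Each point is a library, on the log2(TPM + 1) scale, with sham in blue, TBI in orange, and circles, squares and triangles for days 1, 3 and 7. For Acp1, Ccp84Ab and Cpr49Ab the TBI libraries of day 1 lie to the right of every other library, except that TBI replicate 1 of day 7 comes close for Cpr49Ab, while sham and TBI libraries of Cpr67B or Cpr47Ee are mixed on day 1.

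Each day's TBI libraries were set against its sham libraries with limma, on the log2(TPM + 1) scale. A gene was called where the groups differed by at least 0.6 on that scale and the p-value, adjusted over all genes tested, was no larger than 0.1. On day 1, 4 cuticle genes rose and none fell: Ccp84Ab, Acp1, Cpr49Ab and Cpr100A. They were 4 of the 87 that were above 0 in any library of the day (4.6%), where 2.19% of all 12085 genes tested were called higher and 0.67% lower. A gene at 0 in sham enters this test through its TBI libraries, so counts and medians over the tested members are descriptions. The calls rested on few libraries: without replicate 2 of both groups none of the 4 passed, with adjusted p-values of 0.195 to 0.255 in limma, and 10 genes in all passed. The differences in that smaller fit were 5.24 for Ccp84Ab, 3.63 for Acp1, 4.03 for Cpr49Ab and 1.63 for Cpr100A.

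Ccp84Ab, of the cluster of cuticle genes at 84A (3R: 6701968 to 6702877, minus strand), showed the largest difference of any cuticle gene. It was listed at 0 in all 3 sham libraries of day 1 and reached 25.3, 34.9 and 53.3 TPM after TBI (37.9 ± 14.2, SD, n = 3). On the log2(TPM + 1) scale the difference was 5.22 (SE 0.27, limma adjusted p = 0.0197), a size that depends on the 1 TPM added. On day 3 it was 3.89, 0 and 0 TPM in sham and 0.861, 2.07 and 1.79 TPM in TBI, and on day 7 it was at 0 in every sham library and at 0 and 0.811 TPM in TBI. So all libraries over 4 TPM were TBI libraries of day 1. The neighbouring copy Ccp84Aa was at 0 in 15 of 17 libraries, and the remaining libraries were TBI day 1 replicates 2 and 3, with 0.781 and 1.60 TPM. The copies are related, and reads shared between them may have been split.

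Acp1, named for an adult cuticle protein (2L: 7740562 to 7741537, minus strand), had 1.53, 2.27 and 6.06 TPM in the sham libraries of day 1 (3.28 ± 2.43, SD, n = 3) and 49.4, 63.8 and 52.9 TPM after TBI (55.4 ± 7.50, SD, n = 3). Every TBI library was far above every sham library, and the difference was 3.85 (SE 0.34, limma adjusted p = 0.0360). In the libraries of days 3 and 7 Acp1 stayed between 1.98 and 8.82 TPM in sham and TBI alike. Without replicate 1 of both groups the adjusted p of Acp1 on day 1 was 0.101 in limma.

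Cpr49Ab, a CPR gene of the 49A cluster (2R: 12378440 to 12379396, plus strand), was listed at 0 in every day 1 sham library and had 15.9, 9.11 and 14.8 TPM after TBI (13.3 ± 3.67, SD, n = 3), a difference of 3.80 (SE 0.24, limma adjusted p = 0.0231). It was not limited to those libraries. Sham replicate 2 of day 3 had 5.30 TPM and the TBI libraries of day 7 had 8.39 and 1.06 TPM, while the others were at 0.499 TPM or less. The libraries over 5 TPM were the 5 that were high in digestive enzyme genes.

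Cpr100A, a CPR gene near the end of 3R (30867521 to 30869184, plus strand), was present in every library and rose from 12.4, 10.4 and 7.76 TPM in sham (10.2 ± 2.34, SD, n = 3) to 39.6, 27.7 and 26.9 TPM (31.4 ± 7.09, SD, n = 3) on day 1. The groups did not overlap, and the difference was 1.53 (SE 0.12, limma adjusted p = 0.0316). With replicate 1 or replicate 3 left out of both groups the limma adjusted p was 0.104 or 0.132. The exons of none of the 4 called genes overlap those of another gene.

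**Figure D2:**
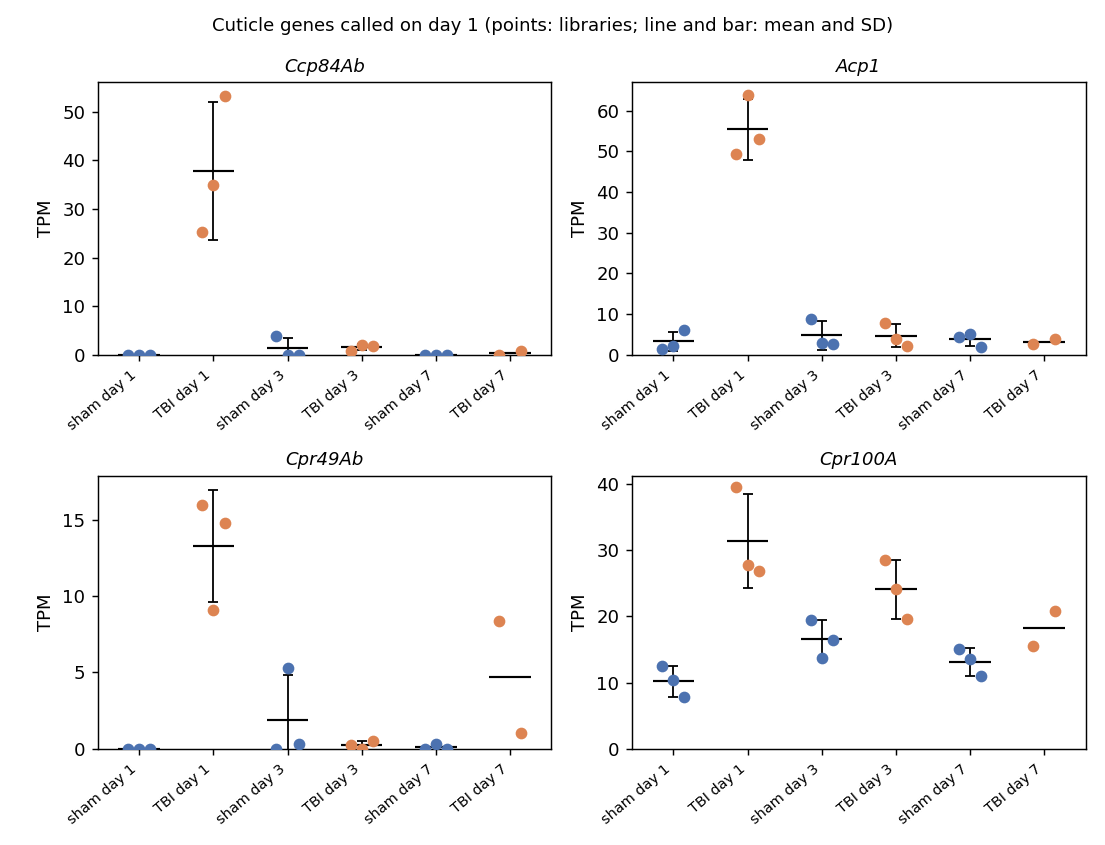
The 4 cuticle genes that rose on day 1, in TPM by group. Points are libraries, the line is the group mean and the bar 1 SD (no bar for TBI day 7, which has 2 libraries). Ccp84Ab and Acp1 are high in TBI day 1 and low in all other groups, Cpr49Ab is also seen in sham day 3 and TBI day 7, and Cpr100A in TBI lies above sham on each day.

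Genes of other tissues moved in the same libraries. On day 1, 12 of 27 midgut digestive enzyme genes tested were called higher, as were Peritrophin-15a and Peritrophin-15b of the peritrophic matrix, the chitinous lining of the midgut, and Cyp4g1 and eloF, genes of oenocytes, the cells that make cuticular hydrocarbons. The oenocyte list, with Cyp4g15 at 0 everywhere, summed to 2.29 to 6.43 TPM in sham and 128 to 298 TPM in TBI on day 1, and also to 121 TPM in sham replicate 2 of day 3, 155 TPM in sham replicate 1 of day 7 and 354 TPM in TBI replicate 1 of day 7. In the last of these libraries Acp1 was at 2.55 TPM and Ccp84Ab at 0, and in sham replicate 2 of day 3 they were at 2.81 and 0 TPM. On day 1 the gut and oenocyte sums were high in every TBI library and in no sham library. Injury and this material therefore cannot be told apart on that day. The photoreceptor list summed to 46704 to 48227 TPM in sham and 26925 to 35386 TPM in TBI on day 1, and the glial list to 4312 to 6278 and 3209 to 4447 TPM. Genes of epidermis and trachea, with vvl at 0 everywhere, summed to 47.4 to 69.8 TPM in sham and 39.7 to 63.2 TPM in TBI, ranges that overlap. Fat body genes summed to 13097 to 22006 TPM in sham and 5425 to 12438 TPM in TBI, neuronal genes to 949 to 1247 and 716 to 940 TPM, and muscle genes to 838 to 959 and 980.1 to 1359 TPM, without overlap, and the glial genes wrapper and alrm were called lower. The part of these shifts in the cuticle result was not tested.

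**Figure D3:**
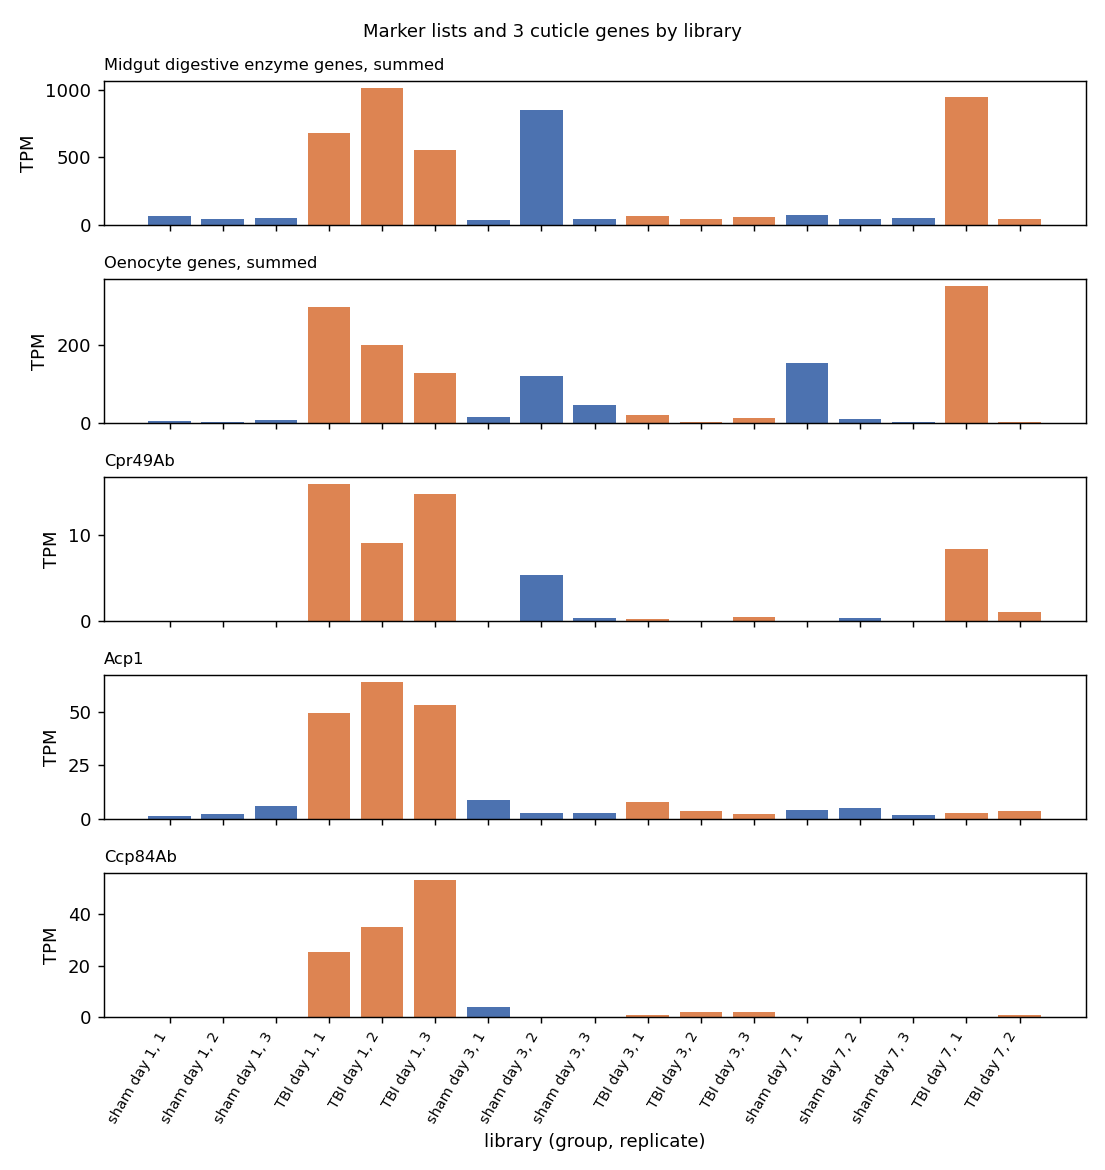
Summed TPM of 30 midgut digestive enzyme genes and of the oenocyte genes, and TPM of Cpr49Ab, Acp1 and Ccp84Ab, in each of the 17 libraries (blue sham, orange TBI). Cpr49Ab stands up in the same 5 libraries as the digestive enzymes, while Acp1 and Ccp84Ab are high in the 3 TBI libraries of day 1.

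Other cuticle genes were higher on day 1 without passing. Pcp, which encodes a pupal cuticle protein and lies in an intron of Gart on the opposite strand, went from 0.277, 0 and 0.655 TPM in sham to 2.29, 0.754 and 2.11 TPM in TBI, without overlap, a difference of 1.03 (limma adjusted p = 0.109). Cpr49Aa, the neighbour of Cpr49Ab, had 0.693, 0.514 and 0.410 TPM in sham and 1.43, 3.30 and 2.64 TPM in TBI (limma adjusted p = 0.166). Cpr47Ea differed by 1.34 (limma adjusted p = 0.185) and Edg91, an ecdysone-dependent gene, by 1.16 (limma adjusted p = 0.233). In all, the TBI libraries lay wholly above sham for 13 of 87 members (14.9%), beside 10.1% of all genes, and wholly below for 3 (3.45%), beside 5.95%. An unadjusted p under 0.05 was reached upward by 15 members (17.2%), beside 9.85% of all genes, and downward by 3 (3.45%), beside 8.34%.

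None of the 3 members that lay wholly below sham on day 1 passed. Cpr72Ec of the corneal lens had 242, 246 and 301 TPM in sham and 223, 207 and 223 TPM in TBI, a difference of −0.27 (SE 0.094, limma adjusted p = 0.264). Cpr65Au had 140, 154 and 120 TPM in sham and 110, 100.1 and 113 TPM in TBI (−0.34, limma adjusted p = 0.282). Lcp65Ag2, a larval cuticle gene with near-identical neighbours between which reads can be split, had 4.0, 3.71 and 2.66 TPM in sham and 1.93, 1.02 and 1.63 TPM in TBI (−0.82, limma adjusted p = 0.207). Cpr72Ea, next to Cpr72Ec, overlapped between groups and differed by −0.66 (limma adjusted p = 0.165).

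Many tested members were at 0 throughout a group. Of the 87, 26 (29.9%) were at 0 in every sham library of day 1 and could differ only upward, and 5 (5.75%) were at 0 in every TBI library, beside 9.36% and 2.46% of all genes tested. All 5 tested genes of the Ccp84A group were among the 26. Of the 56 members above 0 in at least 1 library of both groups, 38 (67.9%) were higher on average in TBI, with a median difference of 0.20, beside 49.9% and −0.00092 for all such genes, a set not matched for level. Their medians were 0.20 for 38 Cpr genes outside 65A, 0.13 for 9 Tweedle genes, 1.09 for 4 Edg, Pcp and Acp1 genes, 0.27 for 2 Lcp genes outside 65A and −0.50 for 3 genes of the 65A cluster. No Tweedle gene passed on any day.

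**Figure D4:**
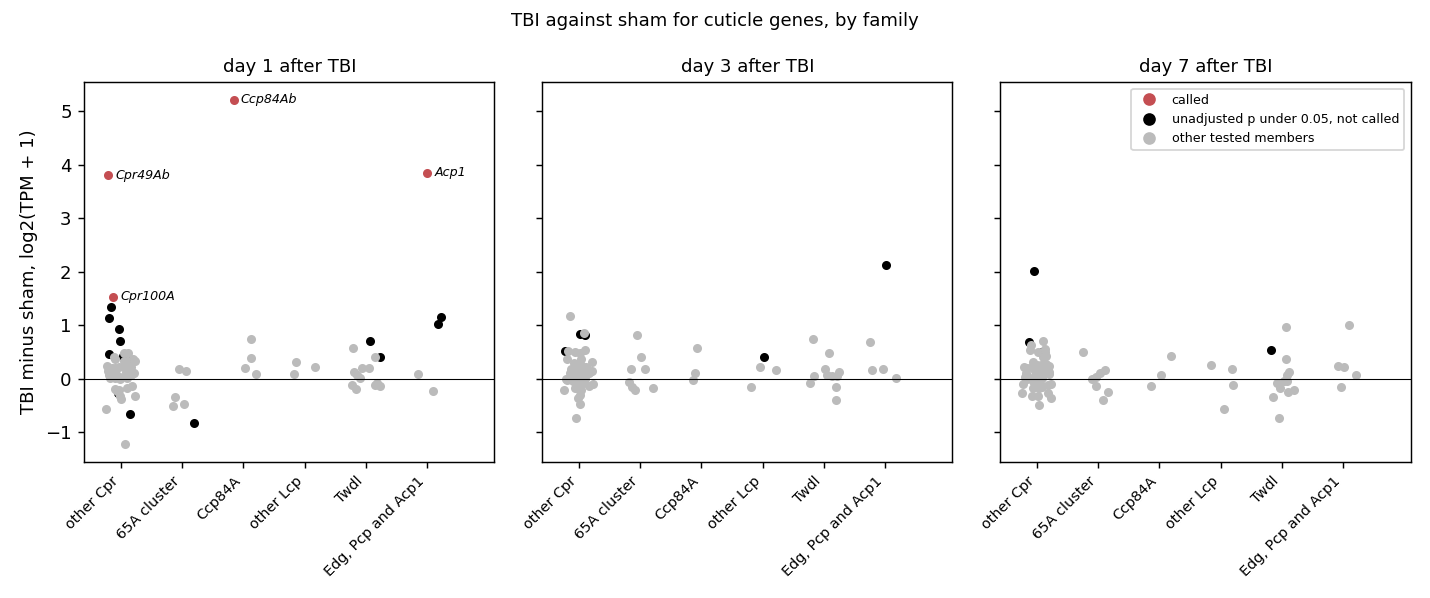
Difference between TBI and sham for every tested cuticle gene, by family and day, on the log2(TPM + 1) scale. Red points were called, black points had an unadjusted limma p under 0.05 without being called, and grey points are the other tested members. The 4 called genes lie between 1.53 and 5.22 on day 1, and no point is red on day 3 or day 7.

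The summed TPM of the 122 genes was 656, 689 and 723 in sham and 766, 792 and 781 in TBI on day 1, without overlap, at an exact permutation p of 0.10 (two-sided), the smallest that 3 against 3 libraries can give. The 4 called genes summed to 14.0, 12.6 and 13.8 TPM in sham and 130.2, 136 and 148 TPM in TBI, and the other members to 643, 676 and 710 TPM in sham and 635, 656 and 633 TPM in TBI, ranges that overlap. The number of members above 0 was 51, 50 and 50 in sham and 61, 66 and 58 in TBI, at the same exact permutation p of 0.10. The number of all listed genes above 0 was also higher in TBI, at 9880 to 10229 in sham and 10351 to 11027 in TBI. On day 3 the sums were 779, 743 and 803 TPM in sham and 997, 784 and 883 TPM in TBI (exact permutation p = 0.20), and on day 7 they were 611, 687 and 717 TPM in sham and 528 and 772 TPM in TBI (exact permutation p = 0.90).

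On day 3 no cuticle gene passed, nor did any other gene (0 called of 11835 tested, 0%). At an unadjusted limma p under 0.05 there were 5 of 83 tested members (6.02%), all higher in TBI, beside 3.21% of all genes higher and 2.6% lower. The TBI libraries lay wholly above sham for 6 members (7.23%, beside 4.35% of all genes) and wholly below for none (beside 3.13%). These were Cpr100A, Cpr47Ee, Cpr57A, Cpr62Bc, Edg91 and TwdlT. Edg91 had 0, 0.685 and 1.53 TPM in sham and 2.38, 10.6 and 8.06 TPM in TBI, a difference of 2.13 (SE 0.32, limma adjusted p = 0.815). Cpr100A had 19.5, 13.7 and 16.4 TPM in sham and 28.5, 24.1 and 19.6 TPM in TBI (0.51, SE 0.17, limma adjusted p = 0.815), so the lowest TBI library was barely over the highest sham library. Cpr49Af, another gene at 49A, differed by 0.85, and Cpr49Ab by −0.73, a sign set by sham replicate 2: without replicate 2 of both groups the difference was 0.23. Cpr62Ba and Cpr47Ea differed by −0.46 and −0.36 (limma adjusted p = 0.818 and 0.828), the latter by 0.079 without replicate 3 of both groups.

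On day 7, again, no gene of the 11966 tested was called (0%), and 4 of 86 tested members (4.65%) had an unadjusted limma p under 0.05, all higher in TBI, beside 3.79% of all genes higher and 0.418% lower. The libraries were shifted as a whole: the median difference of all genes with a mean of at least 1 TPM was 0.29 and that of such cuticle genes 0.23, and median-of-ratios scaling brought them to 0.021 and 0.0057. TBI lay wholly above sham for 8 members (9.3%), beside 15.1% of all genes, and wholly below for none, beside 2.41%. Cpr49Ab had the lowest p among members with a mean of at least 1 TPM, with a difference of 2.02 (SE 0.65, limma adjusted p = 0.717), from 0, 0.282 and 0 TPM in sham and 8.39 and 1.06 TPM in TBI. Twdlalpha, a Tweedle gene on the X chromosome, had 4.30 TPM in TBI replicate 1 and 0.976 TPM in replicate 2, against 0.409 to 1.04 TPM in sham. Lower in TBI, without passing, were Cpr49Ag (39.7, 55.4 and 47.4 TPM in sham, 33.6 and 41.6 TPM in TBI, −0.32), the Tweedle gene TwdlG (2.84, 1.83 and 0.784 TPM in sham, 1.60 and 0 TPM in TBI, −0.74) and Cpr72Ec (−0.35, but 0.090 without TBI replicate 1), with limma adjusted p-values of 0.717, 0.717 and 0.722. Leaving out TBI replicate 2 brought the number of called cuticle genes to 5 (TwdlE, Cpr72Eb, Cpr78E, Cpr49Ab and Twdlalpha) among 1375 genes called in all, and leaving out TBI replicate 1, which is high in digestive enzyme genes, brought it to 2 (Ccp84Ab and Cpr47Eb) among 85, with the lone TBI library assumed to vary like the others.

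Cpr100A and Cpr62Bc lay above sham in every TBI library on each of the 3 days, 2 of the 105 members above 0 in any library (1.9%), where 23 of 12665 genes (0.182%) did so. No member lay below sham on all 3 days, beside 0.158% of all genes. Cpr62Bc, a CPR gene at 62B, was low throughout. It had 0.767, 1.27 and 1.13 TPM in sham and 2.11, 2.56 and 2.29 TPM in TBI on day 1, 0.751, 1.23 and 1.17 TPM against 3.27, 2.80 and 1.86 TPM on day 3, and 0.862, 0.703 and 1.23 TPM against 2.32 and 1.31 TPM on day 7. None of these differences passed (limma adjusted p = 0.172, 0.815 and 0.717). On day 7 Cpr100A had 15.1, 13.5 and 10.9 TPM in sham and 15.6 and 20.8 TPM in TBI. For both genes the lowest TBI library of that day was barely over the highest sham library. The median difference of all genes with a mean of at least 1 TPM was 0.29 on that day. Whether the separation holds after scaling was not tested. The highest of its 17 values fell in TBI day 1 for 33 of the 105 members (31.4%), beside 17.8% of all genes, and in TBI day 7 for 12 (11.4%), beside 37.8%. It fell in TBI day 3 for 21.9%, beside 14.7%, and in sham day 1 for 16.2%, beside 11.2%. For sham day 3 the shares were 8.57% and 7.89%, and for sham day 7 they were 10.5% and 10.7%. The members and all genes were not matched for level in these shares.

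Effects of TBI on different days were compared by interaction terms. Between days 1 and 7 the effect on Ccp84Ab was larger on day 1 by 4.79 (SE 0.46, limma adjusted p = 0.0236), and it was the only one of 99 members to pass (1.01%), where 0.04% of 12493 genes were called. Acp1 differed by 4.01 without passing (limma adjusted p = 0.183). Between days 1 and 3 no member of 96 passed, where 0.0161% of 12446 genes were called, although the differences were 3.83 for Acp1, 4.65 for Ccp84Ab, 4.53 for Cpr49Ab and 1.02 for Cpr100A (limma adjusted p = 0.121, 0.167, 0.167 and 0.174), and 13 members (13.5%) had an unadjusted p under 0.05, beside 13% of all genes. The call of Ccp84Ab between days 1 and 7 was lost when a replicate block was added (limma adjusted p = 0.673) and at a pseudocount of 0.1 (limma adjusted p = 0.203). It was also lost when sham replicate 1 of day 1 or sham replicate 1 or 3 of day 7 was left out (limma adjusted p = 0.163, 0.149 and 0.157). Without replicate 3 of all groups it was lost as well (limma adjusted p = 0.203).

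Cuticle genes were also compared over time in the sham flies alone, which share their day 1 libraries with the TBI comparison of that day. No member of 87 passed on day 3 or day 7 against day 1, where 0.0168% of 11939 genes were called each time. An unadjusted limma p under 0.05 was reached by 6 members (6.9%) in each comparison, beside 3.66% and 3.23% of all genes. Cpr49Ae was at 42.0, 34.6 and 24.7 TPM in sham on day 1 and at 10.1, 14.95 and 21.1 TPM on day 7, without overlap, a difference of −1.11 (limma adjusted p = 1.00). Cpr92A was at 0.693, 0.514 and 0.819 TPM on day 1 and at 0 in all day 3 sham libraries (−0.74, limma adjusted p = 0.667). Cpr100A differed by 0.66 between sham day 3 and sham day 1 (limma adjusted p = 0.938), with all day 3 libraries above those of day 1.

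Cuticle proteins work with enzymes that make, trim, modify and tan the matrix, with other matrix proteins and under common regulators, and 79 such genes of 84 listed were examined. Of the 76 tested on day 1, 2 rose (2.63%, beside 2.19% of all genes) and none fell. At an unadjusted limma p under 0.05, 12 were higher and 6 lower, beside 9.85% and 8.34% of all genes. On days 3 and 7 none passed. At that level 2 were higher and 1 lower of 74 tested on day 3, beside 3.21% and 2.6% of all genes. On day 7, 6 were higher and 0 lower of 76 tested, beside 3.79% and 0.418%. The 2 genes that rose on day 1 were chitin deacetylases, secreted enzymes that take acetyl groups off chitin and are needed for the lining of the trachea. serp was at 2.99, 2.66 and 2.22 TPM in sham and at 22.1, 15.2 and 15.03 TPM in TBI on day 1 (2.33, SE 0.17, limma adjusted p = 0.0283). It lay above sham in every TBI library on the later days too, at 10.8, 13.0 and 9.12 TPM against 4.40, 3.21 and 5.59 TPM on day 3 and at 6.84 and 10.4 TPM against 3.44, 2.92 and 2.29 TPM on day 7, without passing (limma adjusted p = 0.815 and 0.717). verm was at 8.69, 5.53 and 5.60 TPM in sham and at 24.1, 14.3 and 10.4 TPM in TBI on day 1 (1.13, SE 0.18, limma adjusted p = 0.0985), just under the threshold. Digestive enzyme genes were high in the same 3 TBI libraries. In sham replicate 2 of day 3, where they were high too, serp was at 3.21 TPM and verm at 7.49 TPM, within the range of the other sham libraries, and in TBI replicate 1 of day 7 they were at 6.84 and 14.1 TPM. The part of that material in the change of serp and verm was not tested.

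**Figure D5:**
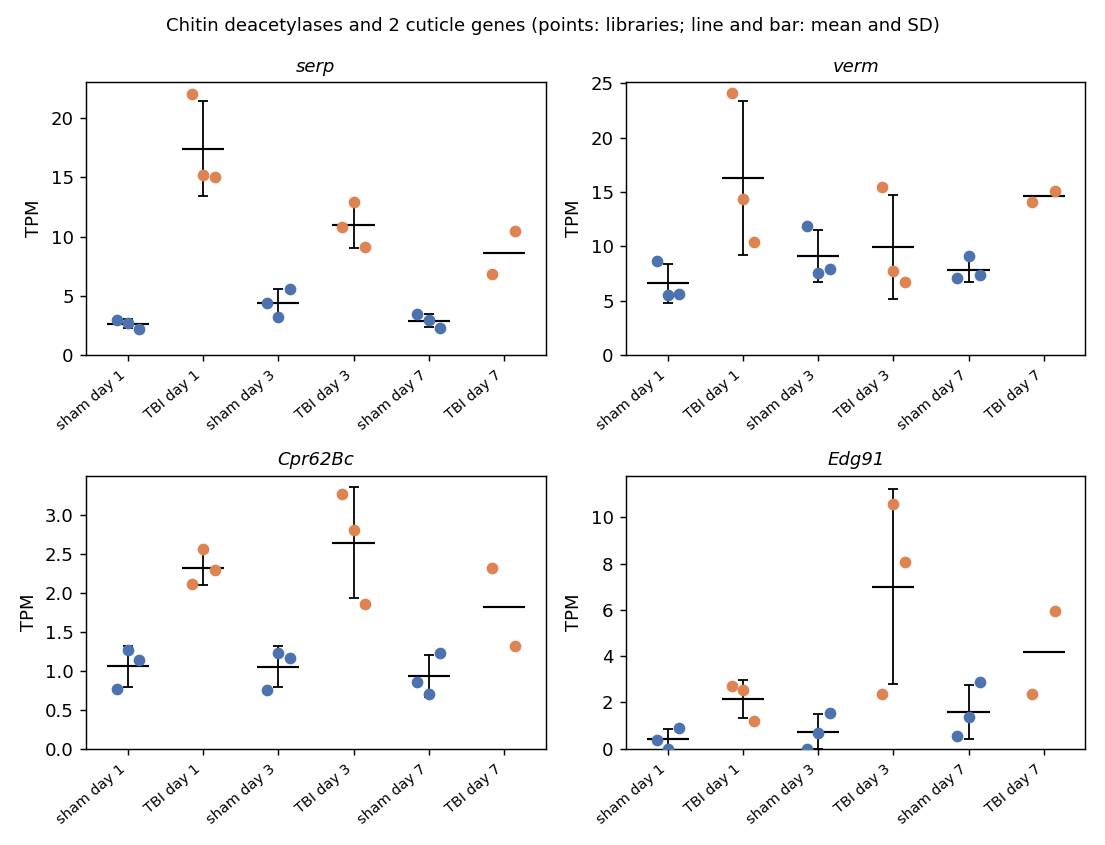
TPM of the chitin deacetylases serp and verm and of the cuticle genes Cpr62Bc and Edg91 by group. Points are libraries, the line is the group mean and the bar 1 SD (no bar for TBI day 7, which has 2 libraries). serp and Cpr62Bc lie higher in every TBI library than in the sham libraries of the same day, and Edg91 is highest in TBI day 3.

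No other gene of these lists was called. Among 11 tested genes of chitin assembly and deacetylation, 5 had an unadjusted limma p under 0.05 on day 1, all higher, including serp, verm and Gasp, which encodes a chitin-binding protein of the tracheal lining (35.2, 33.4 and 23.0 TPM in sham, 53.5, 36.8 and 32.1 TPM in TBI, limma adjusted p = 0.238). Of 18 tested chitinases and chitinase-like genes, 2 were higher and 4 lower at that level, the latter with Idgf1, Idgf4 and Idgf6, growth factors of chitinase descent without known chitin cleavage. Idgf6 was at 551, 458 and 488 TPM in sham and 455, 301 and 338 TPM in TBI (−0.47, limma adjusted p = 0.151). At the same level, chitin synthesis had 1 higher gene of 5, tanning and pigment 2 higher and 1 lower of 19, other matrix proteins 2 higher of 15, and regulators of cuticle genes 1 lower of 8, where 9.85% of all genes tested were higher and 8.34% lower at that level. The corneal lens genes retinin (478 to 1560 TPM over the 17 libraries) and Crys (0.65 to 6.5 TPM) did not pass on day 1, with differences of 0.20 and 0.94 (limma adjusted p = 0.616 and 0.151), beside −0.27 for Cpr72Ec.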

How the data were processed

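Glial TRAP-seq was measured in 17 libraries as 50-base single-ended reads. In the deposited table, abundances are in TPM: the authors ran Kallisto on FlyBase transcripts (release 6.14, with another release named in one place of the study) and used tximport to obtain gene values. Counting by strand is not given in the sources used here. No counts were used, so no counting error or detection limit is given, and the number of replicates sets the precision. Symbols were matched for 13128 of 13479 identifiers (97.4%). Positions are those of the release 6 assembly in Ensembl's annotation, 1-based.

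Daily contrasts of TBI and sham were fitted in limma 3.58.1 (R 4.3.3) to log2(TPM + 1), with a trend on expression, a replicate block on days 1 and 3, since the study describes a correction for replicates, and none on day 7, where the pairs are incomplete. The interaction of days 1 and 3 had a block for each day and replicate, and that of days 1 and 7 and the sham time comparisons had none, 7 fits in all. Genes above 0 in any library of a fit were tested and p-values adjusted over all of them. Adjusted p-values are limma's. Members and gene lists were chosen with earlier results of these data known.

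Named are every called member, the 15 with the highest mean, in each day the 3 with the lowest p in each direction among those with a mean of at least 1 TPM, Ccp84Ab, and the called pathway genes. Other genes were named after their values were seen. Alternatives were the block, upper-quartile and median-of-ratios scaling, a pseudocount of 0.1, a minimum mean of 1 TPM, a joint fit, stricter thresholds and each replicate left out. The fits were tested on simulated data, except the interaction of days 1 and 3 and the comparison of sham day 7 with sham day 1. The simulated data carried no replicate effect, and passing required only the right sign and a small median error of the difference. Passing is thus no check of the error rate of the calls. Changed genes were drawn from those with a mean of at least 10 TPM, a level that few cuticle genes reached. Plots used matplotlib 3.10.9 (Python 3.11.15). Sequences and read-level data were not analysed here.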

Additional observations from a re-analysis of the deposited data

Results flagged for a closer look

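The effect of TBI on Ccp84Ab differed between days. TBI minus sham was 5.22 on day 1 and 0.43 on day 7 on the log2(TPM + 1) scale, a difference of 4.79 (SE 0.46, limma adjusted p = 0.0236 for the interaction), with all 3 TBI libraries of day 1 above every other library. Digestive enzyme and oenocyte genes were high in the same 3 libraries, and also in TBI replicate 1 of day 7, where Ccp84Ab was at 0. The part of that material in the result was not tested. The call was lost in 6 of 21 alternatives, with an adjusted p of 0.673 in limma when a replicate block was added. No group had the 4 libraries needed to test for a single distant sample.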

How the results depend on the processing

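Under the alternatives, 225 of 247 recomputed gene values kept their direction and side of the threshold, 13 lost a call, 4 gained one and 5 changed sign. On day 1 the number of called cuticle genes was 4 with and without the replicate block and 4 or 5 under the other settings, but 0 to 3 with a replicate left out (2 without replicate 1, 0 without replicate 2). The number of all genes called fell from 346 to 214, 10 and 72 without replicates 1, 2 and 3, and was 684 at a minimum mean of 1 TPM and 132 at the stricter thresholds. Upper-quartile scaling moved the day 1 median of all genes with a mean of at least 1 TPM from −0.029 to 0.087, with the same 4 members called. On day 3 no cuticle gene was called under any alternative. On day 7 the number of called cuticle genes was 0 to 5 with libraries left out, where 5, 4 and 2 members stood among 1375, 628 and 85 genes called in all. For the effect on day 1 against day 3 it was 0 in the reported fit (of 2 genes called in all), 3 without the replicate block (of 60) and 3 at a minimum mean of 1 TPM (of 100), being Ccp84Ab, Acp1 and Cpr49Ab, and 1 each with upper-quartile scaling (Acp1, of 36) and with a joint fit of 17 libraries (Ccp84Ab, of 7). For day 1 against day 7 it was 1 in the reported fit (of 5), 0 with a replicate block (of 0), 0 at a pseudocount of 0.1 (of 1), 2 at a minimum mean of 1 TPM (of 3) and 0 to 3 with libraries left out (of 0 to 343). The sham comparisons stayed at 0. Signs changed for Cpr49Ab on day 3 (−1.23 to 0.23 with a replicate left out, 0.23 without replicate 2, and 0.089 without sham replicate 2 and the block, an alternative chosen after seeing the data), Cpr47Ea on day 3 (−0.74 to 0.079, the latter without replicate 3) and Cpr72Ec on day 7 (−0.82 to 0.090, with 0.024 without replicate 1 and 0.090 without TBI replicate 1). The causes were not tested.

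Replicate numbers are only partly a pairing. The correlation of deviations from the group means between same-numbered libraries was 0.376, 0.00423 and 0.216 on day 1, 0.451, 0.143 and −0.0291 on day 3 and 0.224 and 0.124 on day 7. Between differently numbered libraries it reached 0.179 on day 1, 0.228 on day 3 and 0.15 on day 7 (over 8766 genes, which do not count as replicates). With 2 TBI libraries, deviations from their mean are equal and opposite. The day 7 values therefore come in pairs of equal size and opposite sign. TPM keeps no depth, so low values, which most cuticle genes had, carry an unknown counting error, and 2 or 3 libraries per group limit every test.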

Other observations

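Cpr60D, a CPR gene on 2R, took values of 2 kinds. It lay between 2.86 and 7.08 TPM in 13 libraries, and no more than 0.000647 TPM was listed in the remaining 4, namely sham replicate 2 and TBI replicates 2 and 3 of day 1 and sham replicate 2 of day 3. Its difference between TBI and sham was −1.22 on day 1 and 1.18 on day 3, and neither passed (limma adjusted p = 0.373 and 0.818). What set these values was not tested.

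TwdlE, a Tweedle gene on 2L, was above 0 in 6 libraries: sham replicates 1 and 3 of day 1 (0.689 and 1.24 TPM), TBI replicates 1 and 2 of day 1 (2.01 and 3.18 TPM) and both TBI libraries of day 7 (0.792 and 0.173 TPM). It was at 0 in all 6 libraries of day 3. Lcp65Ag2 and Lcp65Ac, larval cuticle genes of the 65A cluster, differed by −1.42 and −1.0 between sham day 7 and sham day 1 at an unadjusted limma p under 0.05, without passing after adjustment (limma adjusted p = 1.00).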
